A study of Homo sapiens with 36 samples.

Results

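The NR4A orphan nuclear receptors are 3 genes, NR4A1, NR4A2 and NR4A3. They were taken by symbol from the deposited count matrix, in which all 3 were found among 57500 gene IDs. Messenger RNA was sequenced from FLO1 and OE33, a pair of cell lines derived from human esophageal adenocarcinoma and labelled as epithelial. Each line had been stably transduced with a non-targeting shRNA (shControl) or with shAPE1#1 or shAPE1#3, which are directed against APEX1, the gene of the base excision repair endonuclease APE1. Cells of each kind were unexposed, or were put for 20 min in acidic bile salts (ABS), at pH 4 and a bile salt concentration of 200 µM, and then given 6 h of recovery in complete medium, which models reflux. The 12 groups had 3 libraries each, described in the labels as independent biological replicates, and every cell in the series carried an shRNA. FLO1 was kept in DMEM and OE33 in RPMI1640, so effects of medium cannot be told apart from those of line. The members are a gene family, selected on its measured response to ABS in these libraries. Its values under APE1 knockdown may also have been in view, so the tests of knockdown below are given as the fit returned them, and neither they nor counts of members called are independent support.

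NR4A proteins are nuclear receptors for which no ligand is needed: the pocket in which other receptors bind their ligand is filled by bulky side chains, so that activity is held to depend largely on the amount of protein. Their genes are immediate early genes, transcribed within minutes of a stimulus without new protein synthesis, through CREB, SRF, MEF2 and NFAT factors. The proteins bind DNA as monomers at the NR4A response element (NBRE) or as dimers, and NR4A1 and NR4A2 also pair with RXR. They are known for roles in apoptosis, metabolism, T cell exhaustion and the repair of DNA double strand breaks, and are induced by stress in many epithelia.

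NR4A1 (Nur77, ENSG00000123358) lies at chr12:52022832-52059507 on the plus strand of GRCh38, NR4A2 (Nurr1, ENSG00000153234) at chr2:156324432-156342348 on the minus strand, and NR4A3 (NOR1, ENSG00000119508) at chr9:99821855-99866891 on the plus strand; all are protein coding. The longest exact runs that their GENCODE 29 protein-coding transcripts share are shown because they bear on whether a read could be assigned to the wrong member. All 3 runs lie in coding exons. The shared run is in capitals, with 20 flanking bases on each side where these are on the transcript. The first pair is the run of 20 bases common to NR4A1 (chr12:52055110-52055169) and NR4A2 (chr2:156329358-156329417), both in exon 3.
NR4A1: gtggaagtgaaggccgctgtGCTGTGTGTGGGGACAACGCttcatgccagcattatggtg
NR4A2: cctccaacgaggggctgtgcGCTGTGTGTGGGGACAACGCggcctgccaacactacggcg

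The second pair is the run of 20 bases common to NR4A2 (chr2:156328458-156328517, exon 4) and NR4A3 (chr9:99832705-99832764, exon 3).
NR4A2: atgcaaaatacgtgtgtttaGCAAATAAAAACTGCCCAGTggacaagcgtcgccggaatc
NR4A3: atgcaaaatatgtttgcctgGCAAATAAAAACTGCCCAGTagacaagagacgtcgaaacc

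NR4A1 and NR4A3 shared at most 17 bases. The flanks differ at many positions, so a read longer than these runs that matches the coding strand of 1 member exactly cannot match that of another exactly. NR4A1AS (ENSG00000259884), a gene on the opposite strand, has 754 of its 915 exonic bases inside NR4A1 exons. It held 0 to 5 counts in every library. The strand setting of the counting is not given in the sources used here, so reads of this overlap cannot be assigned to a strand, whereas NR4A1 itself had 86 to 1533 counts.

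RefSeq promoter windows (GRCh38.p14) were matched for 2 of the 3 members. They were searched because CREB acts at the cAMP response element (CRE). The members rose together with ABS in FLO1, a response known when the family was chosen, and any part of the CRE in it was not tested. NR4A3 had 1 window and NR4A1 had 2, and the bases upstream of the start that lie outside annotated exons are printed for NR4A3 (chr9:99821635-99821854) and for the more upstream start of NR4A1 (chr12:52022582-52022831), plus strand. Capitals mark TGACG, the core of the CRE, on either strand.
NR4A3: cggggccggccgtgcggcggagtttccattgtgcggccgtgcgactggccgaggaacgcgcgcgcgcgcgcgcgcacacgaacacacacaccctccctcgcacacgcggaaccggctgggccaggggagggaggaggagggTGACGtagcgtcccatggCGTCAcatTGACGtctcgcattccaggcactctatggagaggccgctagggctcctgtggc
NR4A1: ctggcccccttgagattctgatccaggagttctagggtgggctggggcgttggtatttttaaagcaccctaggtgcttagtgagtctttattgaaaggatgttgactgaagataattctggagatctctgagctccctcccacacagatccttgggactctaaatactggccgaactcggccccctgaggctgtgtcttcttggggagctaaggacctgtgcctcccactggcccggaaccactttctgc

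The NR4A3 window of 250 bases before the RefSeq start held 4 such cores, 3 of which are in the printed bases and 1 of which (-25 to -21 from the start) is in an exon annotated by GENCODE. A core occurred in 21.2% of 35116 windows of this length, and 4 or more in 0.236%. None of the NR4A1 windows held a core. The full CRE TGACGTCA (1.65% of windows, and by its letters a window with it also holds the core), the EGR motif GCGGGGGCG (4.72%), the NR4A element AAAGGTCA (1.05%), the TATA box TATAAA (10.7%) and the CArG box bound by SRF (1.16%) were searched on both strands and were in no member's window. GENCODE lists 19 start positions for NR4A1, and counts per gene do not tell which start was used.

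Library totals ranged from 20.7 to 40.7 M counts. APEX1 stood between 168 and 210.7 CPM (counts scaled to a library of 1000000, on TMM-scaled library sizes) in all 12 shControl libraries and between 21.7 and 37.0 CPM in all 24 shAPE1 libraries. OE33 expressed each of 5 epithelial markers strongly, while FLO1 had KRT8 (1308 to 2788 CPM) and KRT18 but little EPCAM (0.308 to 1.65 CPM) and KRT19 (3.54 to 18.6 CPM). CDH1 was low in FLO1 as well, at 6.01 to 18.8 CPM against 347 to 485 CPM in OE33. The summed level of 7 immune markers was 2.62 to 7.56 CPM, with MS4A1 at 0 in every library, and that of 4 endothelial markers was at most 1.47 CPM. The summed level of 6 fibroblast markers was 17.9 to 36.3 CPM in FLO1, nearly all from COL1A1, and 2.66 to 6.29 CPM in OE33 except in shControl replicate 3 after ABS, at 21.9 CPM. That library, called the library with collagen reads below, had 154 counts of COL1A2 and 114 of COL3A1, while both other libraries of its group had 0. Comparisons of the members that use it are given with and without it. Single fibroblast markers also stood out elsewhere. FLO1 shAPE1#1 replicate 3 after ABS had 77 counts of COL1A2, against 4 and 1 in its group. Unexposed OE33 shAPE1#1 replicate 2 had 40 counts of PDGFRA, against 0 and 0. Fewer cells of a type and less RNA per cell cannot be told apart in these bulk samples.

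In unexposed shControl cells NR4A1 stood at 5.46, 5.02 and 9.41 CPM in FLO1 and at 3.76, 4.17 and 3.03 CPM in OE33. Every FLO1 library was above every OE33 library. NR4A2 stood at 1.58, 2.33 and 3.73 CPM in FLO1 and at 3.96, 3.65 and 3.81 CPM in OE33, with 1 FLO1 library inside the OE33 range. NR4A3 stood at 1.18, 1.79 and 3.76 CPM in FLO1 and at 0.158, 0.298 and 0.247 CPM in OE33, the latter resting on 4, 8 and 7 reads. By edgeR's quasi-likelihood test, with a call at a Benjamini-Hochberg adjusted p under 0.05, OE33 was lower in NR4A1 by 1.80-fold (log2 -0.85 ± 0.19 SE, adjusted p = 0.000122) and in NR4A3 by 9.27-fold (-3.21 ± 0.57, adjusted p = 8.48e-08). OE33 was higher in NR4A2 by 1.501-fold (0.59 ± 0.20, adjusted p = 0.00700). All 3 members were thus called, in a comparison in which 77.6% of 18199 genes were. Without FLO1 replicate 1, its lowest NR4A2 library, the NR4A2 difference was 0.34 (adjusted p = 0.114). Without FLO1 replicate 3 it was 0.94 (adjusted p = 6.56e-05), and the differences of NR4A1 and NR4A3 were -0.53 (adjusted p = 0.00907) and -2.66 (adjusted p = 2.97e-06).

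Replicate 3 of the unexposed FLO1 shControl group was the highest of its group for all 3 members. Its level was 1.88 times the lowest library's for NR4A1, 2.36 times for NR4A2 and 3.18 times for NR4A3. FOSB and FOS, immediate early genes of the AP-1 family, were also highest there, at 6.60 and 6.79 CPM against 1.72 to 4.45 and 2.62 to 5.52 CPM, whereas EGR1 stood at 12.7, 13.3 and 14.2 CPM. Values of the members without that library stand beside the comparisons that use this group. Another FLO1 shControl library stood out over all genes, replicate 2 after ABS. Its counts gave a chi-square per degree of freedom of 69.7 against replicate 1 and 39.1 against replicate 3, which gave 7.70 between them. The highest value in any other group was 23.8. It also had the highest NR4A1 level of its group, 63.8 against 47.2 and 47.3 CPM. Without it 923 genes, in place of 506, were called with ABS in FLO1 shControl cells. The share of 3% of genes given below for that comparison therefore depends on this library.

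**Figure D1:**
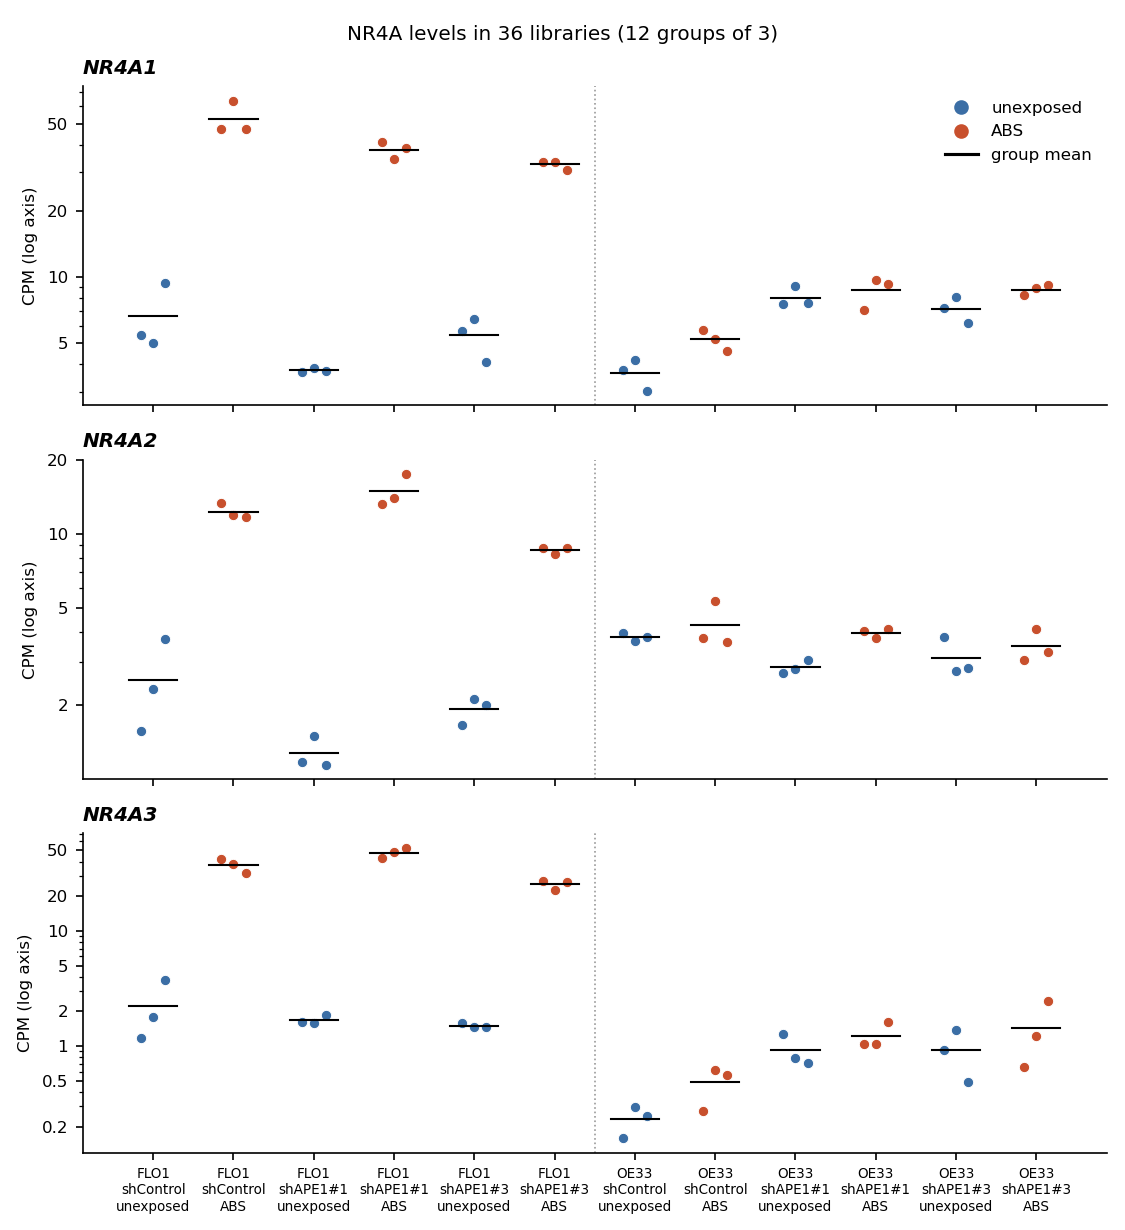
Level of each NR4A gene in CPM (log axis, 1 panel per gene) in the 36 libraries, by line, shRNA and exposure; points are libraries and bars are group means. The 9 FLO1 libraries after ABS stand above all others for each gene, and NR4A3 in OE33 shControl cells stays at 0.619 CPM or less.

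Compared per kilobase of exon (RPKM, from the length of all annotated exons), the make-up of the family differed between the lines. In unexposed FLO1 shControl cells NR4A1 gave 47.7% of the summed NR4A RPKM, NR4A2 33.7% and NR4A3 18.7%. In unexposed OE33 shControl cells NR4A2 was the leading member, with 64.1%, against 33.5% for NR4A1 and 2.48% for NR4A3. In CPM NR4A2 (3.80) and NR4A1 (3.65) stood near each other, so this lead rests on the exon lengths, 3967 and 7295 bases. The NR4A1 length covers the exons of all 22 annotated transcripts, and which of them were expressed is not known. The summed level was 1.91 RPKM in FLO1 and 1.497 RPKM in OE33, so that the family as a whole was expressed at a low level in both. After ABS the sum in FLO1 shControl cells was 16.3 RPKM, with shares of 44.4% for NR4A1, 19.1% for NR4A2 and 36.5% for NR4A3. In OE33 it was 1.86 RPKM, and NR4A2 still led with 57.5%, though in CPM it was below NR4A1 (4.24 against 5.20). In unexposed OE33 cells with shAPE1#1 or shAPE1#3 it was NR4A1 that led, with 56.1% and 51.2%, and NR4A3 had 7.41% and 7.67%.

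**Figure D2:**
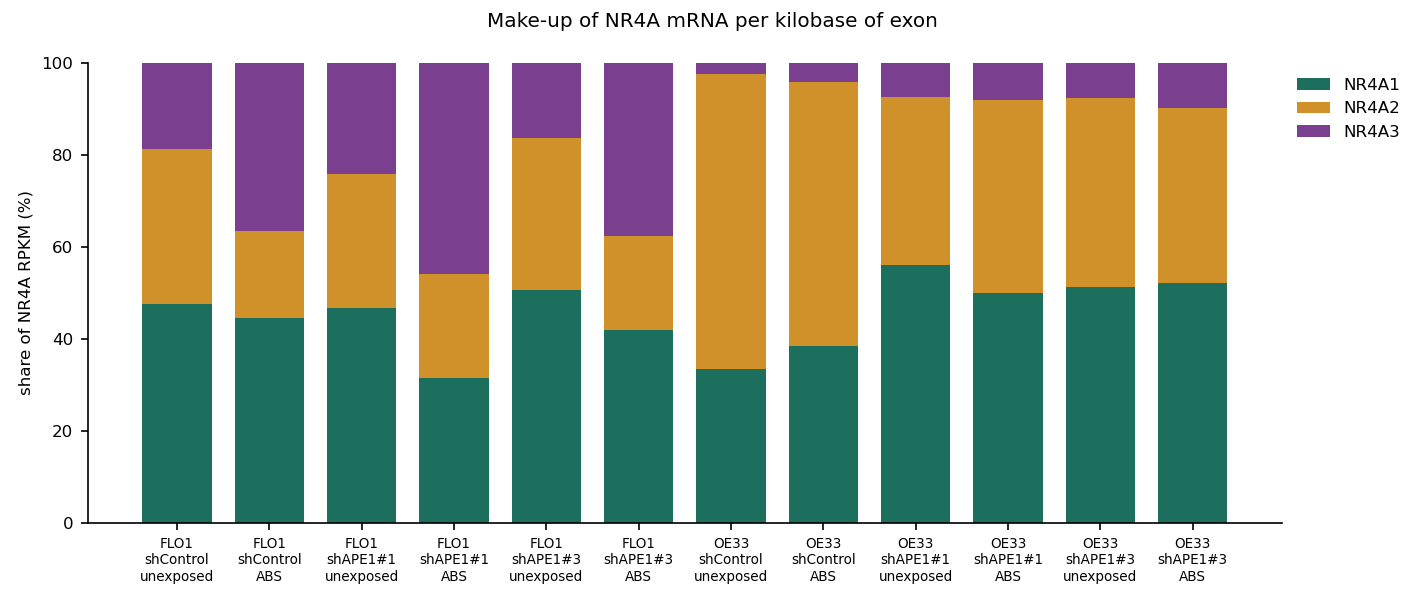
Share of each gene in the summed RPKM of the NR4A genes (percent, group means of 3 libraries), for the 12 groups. NR4A2 has the largest share in OE33 shControl cells, NR4A1 in OE33 shAPE1 cells, and NR4A3 reaches 45.8% in FLO1 shAPE1#1 cells after ABS. Shares depend on the length of all annotated exons, 7295 bases for NR4A1 and 3967 for NR4A2.

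The response to ABS was one of the results known when the family was chosen, so it is described and not tested. In FLO1 shControl cells all 3 members rose in every library. NR4A1 went from 5.46, 5.02 and 9.41 CPM to 47.2, 63.8 and 47.3 CPM. NR4A2 went to 13.4, 11.9 and 11.7 CPM and NR4A3 to 42.5, 38.0 and 32.1 CPM. No exposed library overlapped an unexposed one for any member. The share of all genes without such overlap is not given here, so this is only a description. NR4A3 changed by 16.8-fold, NR4A1 by 7.96-fold and NR4A2 by 4.84-fold, which placed them 7th, 23rd and 53rd from the highest among 16868 genes tested, of which 3% were called in either direction. Without replicate 3 of the unexposed group the log2 changes were 3.32 for NR4A1, 2.63 for NR4A2 and 4.63 (in place of 4.07) for NR4A3.

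The same rise was present in FLO1 cells with reduced APEX1. With shAPE1#1, NR4A1 stood at 3.69, 3.85 and 3.73 CPM unexposed and at 41.1, 34.5 and 38.8 CPM after ABS, a change of 10.1-fold. NR4A2 went from 1.18, 1.51 and 1.15 CPM to 13.2, 14.0 and 17.5 CPM (11.5-fold) and NR4A3 from 1.62, 1.58 and 1.85 CPM to 43.1, 48.1 and 52.7 CPM (28.2-fold). NR4A3 ranked 2nd, NR4A2 7th and NR4A1 12th of all genes tested in that comparison, in which 5.01% were called. With shAPE1#3 the changes were 5.95-fold for NR4A1, 4.46-fold for NR4A2 and 16.8-fold for NR4A3, ranked 28th, 47th and 6th, with 1.81% of genes called. In both shAPE1 groups the exposed and unexposed libraries did not overlap for any member, again without the share over all genes.

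The ABS response of shAPE1#1 cells minus that of shControl cells was 0.34 ± 0.26 (log2 ± SE) for NR4A1, 1.25 ± 0.29 for NR4A2 and 0.74 ± 0.33 for NR4A3. For shAPE1#3 it was -0.42 ± 0.25, -0.12 ± 0.28 and -0.0034 ± 0.32, so the hairpins stood on opposite sides of shControl or near 0. By edgeR 0 of 16868 genes were called in either difference, with 1615 and 341 genes at an unadjusted p under 0.05, and by DESeq2 28 and 1 were called. Without replicate 3 of the unexposed shControl group, which all of these values share, NR4A1, NR4A2 and NR4A3 stood at 0.0096, 0.90 and 0.19 for shAPE1#1 and at -0.75, -0.47 and -0.56 for shAPE1#3.

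In OE33 the response was small. In shControl cells NR4A1 went from 3.76, 4.17 and 3.03 CPM to 5.75, 5.23 and 4.62 CPM, 1.43-fold, with no overlap between the groups. NR4A2 went from 3.65 to 3.96 CPM unexposed to 3.77, 5.30 and 3.63 CPM, and NR4A3 to 0.274, 0.619 and 0.562 CPM, with overlap in both cases. The log2 changes were 0.51 ± 0.16, 0.15 ± 0.17 and 1.02 ± 0.59, and the background was 8.4% of 15540 genes called. NR4A1 ranked 829th and NR4A2 3958th from the highest, and NR4A3, on 4 to 17 reads per library, 188th. With shAPE1#1 the changes were 0.12 ± 0.14, 0.47 ± 0.17 and 0.42 ± 0.42, and with shAPE1#3 0.30 ± 0.15, 0.17 ± 0.18 and 0.64 ± 0.42, in comparisons in which 4.73% and 2.26% of genes were called. Without shControl replicate 3 after ABS, the library with collagen reads, the shControl changes were 0.60 for NR4A1, 0.25 for NR4A2 and 0.89 for NR4A3. The response in OE33 minus that in FLO1, in shControl cells, was -2.49 ± 0.25 for NR4A1, -2.13 ± 0.26 for NR4A2 and -3.06 ± 0.69 for NR4A3, where 1.73% of 18199 genes were called. Without the library with collagen reads these values were -2.40, -2.02 and -3.19, and without replicate 3 of unexposed FLO1 shControl cells they were -2.82, -2.49 and -3.62. With shAPE1#1 the difference was -3.22, -3.07 and -4.41 (4.86% of genes called), and with shAPE1#3 -2.28, -1.99 and -3.43 (0.665%).

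Within OE33, the ABS response of shAPE1#1 minus that of shControl cells was -0.39 ± 0.21 for NR4A1, 0.32 ± 0.24 for NR4A2 and -0.60 ± 0.72 for NR4A3, and for shAPE1#3 it was -0.22 ± 0.21, 0.02 ± 0.24 and -0.38 ± 0.72. Without the library with collagen reads they were -0.47, 0.23 and -0.47, and -0.30, -0.085 and -0.26. By edgeR 0 genes (0%) and 2 genes (0.0129%) were called, with 557 at an unadjusted p under 0.05 for shAPE1#1, and by DESeq2 10 and 9.

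**Figure D3:**
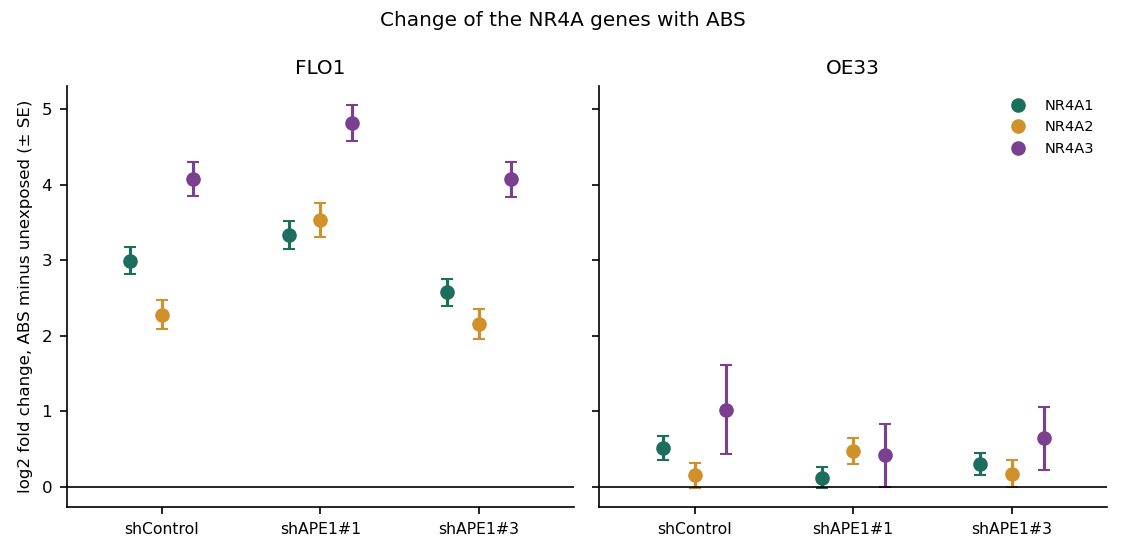
Log2 fold change with ABS (vertical axis, ± SE from the edgeR fit) of the 3 genes, by shRNA, in FLO1 (left) and OE33 (right), 3 libraries per group. The 9 FLO1 values lie between 2.16 and 4.82, and the 9 OE33 values between 0.12 and 1.02.

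The knockdown of APEX1 was compared with shControl in unexposed cells and after ABS. In unexposed OE33 cells NR4A1 and NR4A3 were higher with each hairpin. NR4A1 stood at 7.54, 9.07 and 7.61 CPM with shAPE1#1 and at 7.24, 8.14 and 6.18 CPM with shAPE1#3, all above the 3.03 to 4.17 CPM of shControl. It rose by 2.21-fold (1.14 ± 0.15, adjusted p = 5.65e-06) and 1.97-fold (0.98 ± 0.16, adjusted p = 6.01e-05). NR4A3 stood at 1.28, 0.781 and 0.709 CPM and at 0.924, 1.38 and 0.489 CPM, against 0.158 to 0.298 CPM in shControl, or 11 to 36 reads against 4 to 8. NR4A3 entered the OE33 fit through its shAPE1 libraries: all 12 of these but only 2 of 6 shControl libraries reached the level that the filter on low counts asks of 3 libraries, so a call is no support. Its log2 changes were 1.96 ± 0.56 (adjusted p = 0.0107) and 1.96 ± 0.57 (adjusted p = 0.0102), and with no filter they were 1.95 and 1.94 (adjusted p = 0.000336 and 0.000446). NR4A2 stood at 2.70, 2.82 and 3.06 CPM and at 3.80, 2.76 and 2.84 CPM, against 3.65 to 3.96 CPM. Its changes were -0.41 ± 0.18 (adjusted p = 0.118; 95% interval, not adjusted, -0.75 to -0.07) and -0.28 ± 0.18 (adjusted p = 0.285; -0.63 to 0.07) and were not called. Over all genes, 16.4% and 21.7% were called with the 2 hairpins, and 12.9% with both in 1 direction, so a call by itself was common in OE33.

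After ABS NR4A1 was again called higher in OE33 with each hairpin. It stood at 7.08, 9.74 and 9.33 CPM with shAPE1#1 and at 8.27, 8.88 and 9.17 CPM with shAPE1#3, above the 4.62 to 5.75 CPM of shControl (0.75 ± 0.15, adjusted p = 0.000665, and 0.76 ± 0.15, adjusted p = 0.000489). NR4A3 stood at 1.03, 1.04 and 1.61 CPM and at 0.655, 1.21 and 2.45 CPM, above 0.274 to 0.619 CPM (1.36 ± 0.46, adjusted p = 0.0388, and 1.57 ± 0.45, adjusted p = 0.0131; with no filter 1.35 and 1.57, adjusted p = 0.00724 and 0.000580). NR4A2 had differences of -0.09 ± 0.17 and -0.26 ± 0.17 (adjusted p = 0.789 and 0.316). The share of genes called was 15.8% and 18.1%, and 12.4% with both hairpins. The summed level of the 5 epithelial markers also differed in OE33, at 18007 to 20281 CPM with shAPE1#1 and 18490 to 19586 CPM with shAPE1#3 against 21732 to 24420 CPM in unexposed shControl cells. Its part in these results was not tested. The NR4A1 calls in OE33 held when any 1 library of the compared groups was left out, with the adjusted p at most 0.00786. Without the library with collagen reads, the changes after ABS were 0.67 for NR4A1 with each hairpin (adjusted p = 0.00786 and 0.00629), -0.19 and -0.37 for NR4A2 (adjusted p = 0.598 and 0.202), and 1.70 for NR4A3 with shAPE1#3 (adjusted p = 0.0295).

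The NR4A3 calls in OE33 were less stable. Unexposed, the call was lost without shAPE1#1 replicate 1 (1.64, adjusted p = 0.0640) and without shAPE1#3 replicate 2 (1.55, adjusted p = 0.0796). After ABS the shAPE1#1 call was lost in 5 of 6 cases: without shControl replicate 1 (1.07, adjusted p = 0.157), 2 (1.56, adjusted p = 0.0555) or 3 (1.49, adjusted p = 0.0692), and without shAPE1#1 replicate 1 (1.46, adjusted p = 0.0530) or 3 (1.10, adjusted p = 0.154). The shAPE1#3 call was lost without shControl replicate 1 (1.28, adjusted p = 0.0804) and without shAPE1#3 replicate 3 (0.98, adjusted p = 0.162). Direction was kept throughout. Both hairpins are set against the same shControl libraries, so their agreement is not independent. Set against each other, no member differed in OE33, where 0% (unexposed) and 0.116% (after ABS) of genes were called. Unexposed, 1248 genes had an unadjusted p under 0.05 and DESeq2 called 15. The 95% intervals of shAPE1#3 minus shAPE1#1 for NR4A1 were -0.45 to 0.12 and -0.26 to 0.29. Whether the OE33 groups carry different hairpins could not be settled from the counts.

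In FLO1 the direction of the NR4A1 difference was the opposite. Unexposed, NR4A1 stood at 3.69 to 3.85 CPM with shAPE1#1, below the 5.02 to 9.41 CPM of shControl (-0.83 ± 0.20, adjusted p = 0.0128), and NR4A2 stood at 1.15 to 1.51 CPM, below 1.58 to 3.73 CPM (-1.003 ± 0.24, adjusted p = 0.0119). NR4A3 overlapped and was not called (-0.41 ± 0.27, adjusted p = 0.438). Of all genes, 6.74% were called. With shAPE1#3 the levels were 5.70, 6.44 and 4.12 CPM for NR4A1, 1.67, 2.12 and 2.00 CPM for NR4A2 and 1.60, 1.46 and 1.45 CPM for NR4A3. All 3 overlapped shControl and none was called (-0.29 ± 0.19, -0.42 ± 0.22 and -0.58 ± 0.27, adjusted p = 0.735, 0.606 and 0.525), where 0.788% of genes were.

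These FLO1 calls were lost when single libraries were left out, though the changes themselves moved most without shControl replicate 3. Without shControl replicate 3 the shAPE1#1 changes were -0.50 for NR4A1 (adjusted p = 0.119), -0.65 for NR4A2 (adjusted p = 0.107) and 0.14 for NR4A3 (adjusted p = 0.799), and the shAPE1#3 changes were 0.043, -0.064 and -0.023 (adjusted p = 0.953, 0.946 and 0.983). Both calls were also lost without shAPE1#1 replicate 1 (adjusted p = 0.0503 and 0.0558) and replicate 3 (adjusted p = 0.0552 and 0.0705), at log2 changes of -0.82 and -0.96, and -0.81 and -0.92. The summed epithelial markers were higher with shAPE1#1 (3553 to 3793 CPM, unexposed) than in shControl (2294 to 2663 CPM), and their part in the result was not tested.

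After ABS NR4A1 was called lower in FLO1 with each hairpin. Its levels were 34.5 to 41.1 CPM with shAPE1#1 and 30.9 to 33.7 CPM with shAPE1#3, below 47.2 to 63.8 CPM in shControl (-0.49 ± 0.16, adjusted p = 0.0400, and -0.71 ± 0.16, adjusted p = 0.0356). Of all genes, 16.6% and 0.783% were called, and 0.142% with both hairpins in 1 direction. Neither call held when only the groups compared entered the fit (adjusted p = 0.125 and 0.233). The shAPE1#1 call was lost without shControl replicate 2 (-0.34, adjusted p = 0.123) and without shAPE1#1 replicate 1 (-0.54, adjusted p = 0.0605), 2 (-0.42, adjusted p = 0.143) or 3 (-0.50, adjusted p = 0.0896). The shAPE1#3 call was lost without shControl replicate 3 (-0.77, adjusted p = 0.0634) and without shAPE1#3 replicate 1 (-0.72, adjusted p = 0.109), 2 (-0.73, adjusted p = 0.129) or 3 (-0.66, adjusted p = 0.205). Replicate 3 of shAPE1#3 after ABS is the column whose name carries a further suffix.

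NR4A2 and NR4A3 after ABS in FLO1 set the hairpins apart. NR4A2 stood at 13.2, 14.0 and 17.5 CPM with shAPE1#1 and at 8.72, 8.28 and 8.78 CPM with shAPE1#3, around 11.7 to 13.4 CPM in shControl. NR4A3 stood at 43.1, 48.1 and 52.7 CPM and at 27.0, 22.5 and 26.6 CPM, around 32.1 to 42.5 CPM. Against shControl neither was called. NR4A2 differed by 0.25 and -0.54 (adjusted p = 0.322 and 0.214), and NR4A3 by 0.33 and -0.58 (adjusted p = 0.201 and 0.176). Without shControl replicate 2, NR4A2 was called lower with shAPE1#3 (-0.58, adjusted p = 0.0363). Set directly against each other, shAPE1#3 was lower than shAPE1#1 by 1.73-fold in NR4A2 (-0.79 ± 0.17, adjusted p = 0.00187) and by 1.88-fold in NR4A3 (-0.91 ± 0.17, adjusted p = 0.000760). NR4A1 was not called in that comparison (-0.22 ± 0.16, adjusted p = 0.354). Of all genes, 22.3% were called. Both calls held without any 1 library. In unexposed FLO1 cells no member was called between the hairpins (0.54, 0.58 and -0.17, adjusted p = 0.0851, 0.135 and 0.783), where 12.2% of genes were.

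The unexposed knockdown effects of the lines were also set against each other, a comparison added after the counts had been seen and so no independent support. NR4A1 and NR4A3 were called with each hairpin and NR4A2 was not. Of all genes, 6.31% (shAPE1#1) and 7.19% (shAPE1#3) were called.

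**Figure D4:**
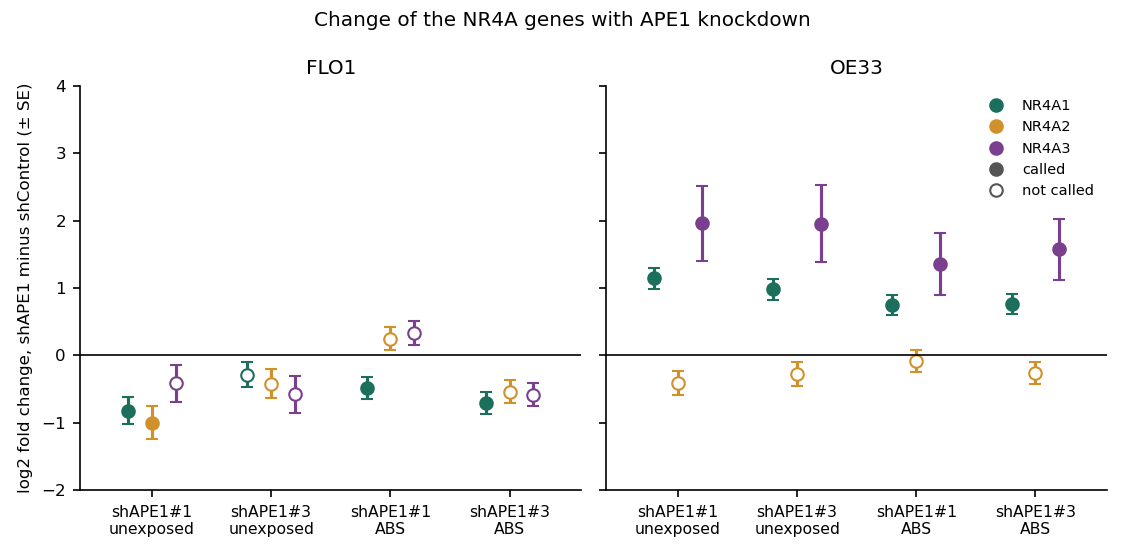
Log2 fold change of shAPE1 against shControl (vertical axis, ± SE from the edgeR fit) of the 3 genes in FLO1 (left) and OE33 (right), unexposed and after ABS; filled points were called at an adjusted p under 0.05. All 4 NR4A1 values are negative in FLO1 and all 4 are positive in OE33, where NR4A3 is higher as well and NR4A2 is not called. Both hairpins share their shControl libraries. The unexposed FLO1 shAPE1#3 value of NR4A1 was 0.043 without shControl replicate 3, and the FLO1 calls against shControl were lost without single libraries.

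Ordered by mean level over the 12 groups, NR4A1 was highest in FLO1 shControl cells after ABS (52.8 ± 9.58 CPM, SD), then in shAPE1#1 (38.1 ± 3.34) and shAPE1#3 cells (32.7 ± 1.54), with no overlap between neighbours. The 6 groups that followed, from OE33 shAPE1#3 after ABS (8.78 ± 0.458) to unexposed FLO1 shAPE1#3 (5.42 ± 1.19), each overlapped the next. OE33 shControl cells after ABS (5.20 ± 0.565), unexposed FLO1 shAPE1#1 cells (3.76 ± 0.083) and unexposed OE33 shControl cells (3.65 ± 0.577) were lowest, the last 2 overlapping. For NR4A2 and NR4A3 the highest group was instead FLO1 shAPE1#1 after ABS, at 14.9 ± 2.30 and 48.0 ± 4.78 CPM. The lowest NR4A2 level was in unexposed FLO1 shAPE1#1 cells (1.28 ± 0.197 CPM), and the lowest NR4A3 level in unexposed OE33 shControl cells (0.234 ± 0.071 CPM), which overlapped the same cells after ABS.

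The genes most like each member over the 36 libraries were found by Pearson's r of log2(CPM + 0.5), centred on the mean of each line, among 12403 genes. The libraries share their groups, so r is a description. NR4A1 was nearest to EGR1 (r = 0.95), ARC, HERPUD1, MAFF and RRAD, and NR4A3 to HERPUD1 (r = 0.95), NFATC2, TNFRSF10B, KLF10 and ZNF702P. NR4A2 was nearest to ANKRD42 (r = 0.92), EIF2AK3, FOS, ARC and MAFF. EGR1, FOS, MAFF and KLF10 are stress- or growth-factor-induced transcription factors, HERPUD1 and EIF2AK3 act in the unfolded protein response, and TNFRSF10B is a TRAIL death receptor. Among themselves the members reached 0.96 (NR4A1 and NR4A3), 0.93 (NR4A2 and NR4A3) and 0.90 (NR4A1 and NR4A2). Over the 12 group means in place of the libraries, the order of nearest genes differed. There PDRG1 was nearest to NR4A1 and to NR4A3 (r = 0.98 for each), and JUND to NR4A2 (r = 0.97).

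Genes around the family were taken in lists by role. Among regulators of NR4A transcription, called induction factors below though not all are activators, 2 of 34 measured in FLO1 shControl cells rose with ABS. Both were NFAT genes, which carry calcium and calcineurin signals: NFATC2 (1.44 ± 0.12, adjusted p = 1.17e-07) and NFATC1 (0.59 ± 0.12, adjusted p = 0.00620). None fell, and the list's median was 0.01, against -0.01 over all genes, of which 3% were called. In OE33, where 8.4% of all genes were called, 6 of 35 rose and 0 fell, among them the class II deacetylase HDAC5 (0.84), NFATC2 (0.45), the acetyltransferase EP300 (0.45) and MRTFA, an SRF coactivator (0.34), with a median of 0.07 against -0.0050.

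Of 19 genes known as targets of CREB and measured in FLO1, 8 rose, 1 fell (ID2, -0.43) and 10 did not pass, with a median of 0.36 against -0.01 over all genes and 3% of all genes called. The largest changes were in FOSB (2.30 ± 0.27), FOS (2.03 ± 0.21), the synaptic activity gene ARC (1.97 ± 0.16) and EGR1 (1.85 ± 0.10), each with an adjusted p of 1.24e-05 or less. In OE33 (8.4% of all genes called), 6 of 21 rose and 2 fell (median 0.19), led by FOSB (1.53 ± 0.20, adjusted p = 9.40e-06) and PPARGC1A, a coactivator of mitochondrial genes (1.01 ± 0.16, adjusted p = 0.000206), while RGS2 (-0.79 ± 0.15, adjusted p = 0.00114) and the EGFR ligand gene AREG (-0.35) fell.

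Of 40 other immediate early genes, 24 rose and 0 fell in FLO1 (median 0.44), led by EGR4 (2.73 ± 0.23) and FOSB. In OE33, 13 rose, led by FOSB, RRAD (1.21 ± 0.33) and ATF3 (1.14 ± 0.14), and 2 fell, IER3 (-0.41) and DUSP6 (-0.27), with a median of 0.20. The shares over all genes were again 3% and 8.4%. Without replicate 3 of unexposed FLO1 shControl cells, 22 immediate early genes, 9 CREB targets and 2 induction factors were called in FLO1. Over the alternatives these FLO1 counts ranged from 16 to 26, 6 to 10 and 1 to 4. The lists share 10 genes, FOSB among them. Without the library with collagen reads, the OE33 calls were 10 of 40 immediate early genes, 7 of 21 CREB targets and 3 of 35 induction factors.

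Of 25 other nuclear receptors measured in FLO1, 1 rose, NR1D1, a repressor of the circadian clock (0.80 ± 0.15, adjusted p = 0.00299), and 0 fell (median 0.10). This was 4% of the list, near the 3% of all genes called, and over the alternatives 0 to 5 were called. In OE33, 3 of 28 rose, PPARD (0.68), THRB (0.67) and NR2F2 (0.38), and PPARG fell (-0.57 ± 0.07, adjusted p = 3.98e-06). Together these were 14.3% of the list, against 8.4% of all genes. Of 23 binding partners and coregulators of NR4A proteins, 0 were called in FLO1 by edgeR (4 at an unadjusted p under 0.05) and 1 by DESeq2. TRIM28, the most abundant of them, had a log2 change of 0.02. In OE33, PML (0.42) and PIAS4 (0.24) rose, 2 of 23, which is near the 8.4% of all genes called. Of 12 kinases that modify the receptors and DNA repair partners, 0 were called in FLO1 by edgeR (3 at an unadjusted p under 0.05) and 3 by DESeq2. In OE33 CHEK2 (-0.30), a checkpoint kinase, and XRCC5 (-0.24), which encodes Ku80, fell, 2 of 12, and over the alternatives 0 to 2 were called. Without the library with collagen reads, 0 kinases and repair partners and 1 partner were called in OE33.

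Genes reported elsewhere as targets of NR4A proteins, are known from other tissues in many cases. Of 28 listed, 16 were measured in FLO1, of which 0 were called higher and 1 fell, the survivin gene BIRC5 (-0.39 ± 0.08, adjusted p = 0.00694). This was 6.25% of those measured, against 3% of all genes. Over the alternatives 0 to 3 were called, and 2 without replicate 3 of unexposed shControl cells. In OE33, 12 were measured. MYC rose (0.31 ± 0.06), and E2F1 (-0.37 ± 0.09) and TXNIP (-0.27 ± 0.06) fell. That made 3 called, 25% of those measured, against 8.4% of all genes, and over the alternatives 2 to 7 were called.

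**Figure D5:**
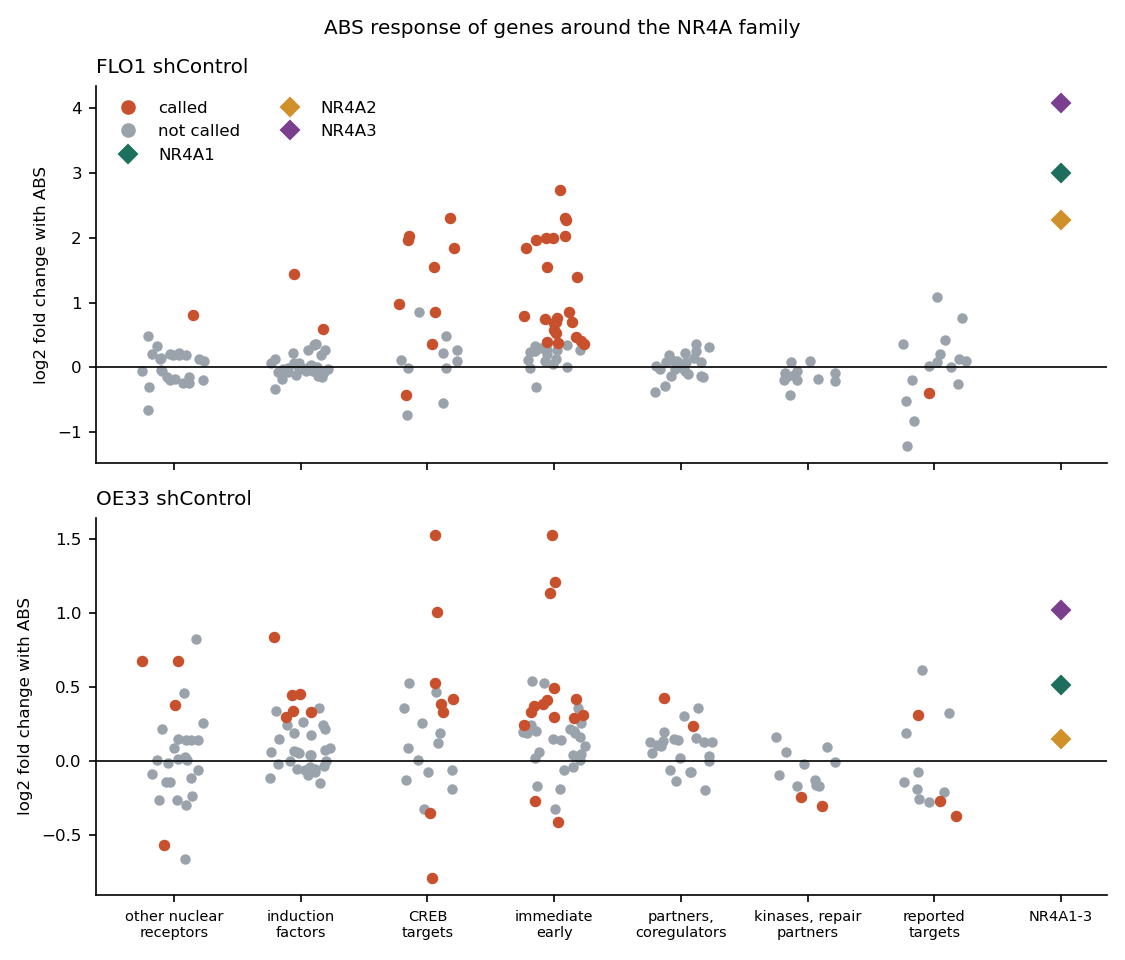
Log2 fold change with ABS (vertical axis, scaled separately per panel) of the genes of each list in FLO1 (top) and OE33 (bottom) shControl cells; orange points were called, grey points were not, and diamonds are the NR4A genes, which were not tested here. In FLO1 the calls lie in the CREB target and immediate early lists, with 1 or 2 in 3 others.

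With both hairpins in unexposed OE33 cells, 8 of 21 CREB targets rose and 1 fell, while 12.9% of all genes were called. The phosphatase gene DUSP1 rose by 1.15 ± 0.11 and 1.13 ± 0.11, the clock gene PER1 by 1.02 ± 0.12 and 0.80 ± 0.13, and FOSB by 0.90 ± 0.20 and 0.79 ± 0.21, while BDNF fell by 0.97 and 1.10 on the log2 scale. Of 40 immediate early genes 13 rose, led by ATF3 (1.83 ± 0.14 and 1.58 ± 0.14) and EGR4 (1.47 ± 0.31 and 1.20 ± 0.32), and 2 fell, KLF2 (-0.69 and -0.65) and IER2 (-0.38 and -0.34). Of 35 induction factors 6 rose and 0 fell, with PRKACB, a catalytic subunit of protein kinase A, at 1.18 ± 0.15 and 1.27 ± 0.15 and HDAC5 at 0.55 and 0.49.

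The partner RXRA was lower in unexposed OE33 with both hairpins (-0.41 ± 0.09, adjusted p = 0.00136, and -0.36 ± 0.09, adjusted p = 0.00355), as was the corepressor RCOR1 (-0.52 and -0.48). These made 0 higher and 2 lower of 23, under the 12.9% of all genes called. Among other nuclear receptors 3 of 28 were higher, NR2F2 (0.85 ± 0.06 and 1.09 ± 0.06), NR5A2 (0.63 and 0.84) and NR1D2 (0.39 and 0.37). The 5 that were lower were RARG (-0.63 and -0.59), RXRA, NR2C1 (-0.35 and -0.32), PPARA (-0.30 and -0.32) and PPARG (-0.26 and -0.32). Reported targets were split, with ITGB1 and MYC (0.40 and 0.39) higher and IDH1, FBP1 (-0.93 and -0.63) and E2F1 lower, 5 of 12. AKT2 was higher (0.31 and 0.29) and CHEK2 lower (-0.27 and -0.28), 2 of 12, near the share over all genes. Without 1 shControl library at a time, 6 to 8 CREB targets and 11 to 14 immediate early genes were called higher with both hairpins, and 2 to 4 induction factors in place of 6. Without shControl replicate 1, 1 nuclear receptor was called higher and 4 lower, 1 reported target higher and 2 lower, and 1 kinase or repair gene higher.

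In FLO1 the genes of these lists called with both hairpins were FOSB and EGR1, each in the CREB target and immediate early lists. Unexposed, FOSB was lower (-1.62 ± 0.35, adjusted p = 0.00481, and -1.41 ± 0.33, adjusted p = 0.0439). It made 1 of 19 and 1 of 40 measured, where 0.0711% of all genes were called with both hairpins in 1 direction. After ABS EGR1 was lower (-0.74 ± 0.10, adjusted p = 2.31e-05, and -0.51 ± 0.10, adjusted p = 0.00906). That was again 1 of 19 and 1 of 40, where 0.142% of all genes were called. EGR1 after ABS was called with both hairpins without any 1 shControl library. FOSB in unexposed cells lost its shAPE1#3 call without shControl replicate 3 (-0.98, adjusted p = 0.287) or replicate 2 (-1.38, adjusted p = 0.150). With shAPE1#1 alone the lipid-sensing receptor PPARG was the nuclear receptor that differed most in FLO1 (2.61 ± 0.25 unexposed, adjusted p = 4.38e-07).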

How the data were processed

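Poly(A) RNA was sequenced in 36 libraries of 12 groups. Per the submitters' processing notes, reads were trimmed with Trimmomatic 0.36, aligned to GRCh38 with STAR 2.5.2b and counted with featureCounts (Subread 1.5.2). Which annotation release and strand setting were used, and how multi-mapped reads were handled, is not given in the sources. The deposited values are raw read counts per gene, with no normalization by the authors. Of 57500 Ensembl IDs, 56898 were matched to symbols in GENCODE 29, and the rest held 0.0183% of counts.

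Counts were analysed with edgeR 4.0.16 (R 4.3.3, limma 3.58.1): filterByExpr, TMM and the robust quasi-likelihood test, with 1 mean per group. Each line was fitted alone (16868 genes in FLO1, 15540 in OE33), and both together for differences between lines (18199). P-values were adjusted over all genes tested by Benjamini-Hochberg. Levels are CPM on TMM-scaled library sizes of the fit of both lines, and RPKM divides them by the length of all annotated exons. The labels call the replicates independent; where that means separate passages of 1 line, p-values measure the spread between such cultures. Intervals are 95% and not adjusted. The scripts were tested on simulated data.

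The members and gene lists were chosen with earlier results of these data known, so the members' ABS responses carry no test. Named genes were, per comparison and list, up to 4 called genes with the largest change, or the 2 most abundant where none was called. Genes of small counts outside that rule (ID2, AREG, IER3, DUSP6, KLF2, IER2, NR5A2, NR1D2, NR2C1, PPARA and PPARG) were named after their values had been seen. FOSB and EGR1 were followed across left-out libraries after their values had been seen. PDRG1 and JUND were likewise named after their values had been seen. Promoters are RefSeq's (GRCh38.p14). DESeq2 1.42.0, other scalings and filters, fits of the compared groups alone, a replicate block and leaving out each library were alternatives. The difference between lines of the knockdown effect and the list counts without single shControl libraries were added after the data had been seen. One gene that the naming rule selects is not reported here.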

Additional observations from a re-analysis of the deposited data

Results flagged for a closer look

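The fitted effect of APEX1 knockdown on unexposed cells differed between the lines for NR4A1 and NR4A3, in an edgeR comparison added after the counts had been seen. Knockdown values may also have been in view when the family was chosen. The adjusted p-values are therefore given as the fit returned them and are no independent support. In OE33 minus FLO1, NR4A1 differed by 1.95 ± 0.27 (log2 ± SE) with shAPE1#1 (adjusted p = 2.51e-06) and by 1.24 ± 0.26 with shAPE1#3 (adjusted p = 0.00175). NR4A3 differed by 2.36 ± 0.68 (adjusted p = 0.0163) and by 2.505 ± 0.69 (adjusted p = 0.0121). NR4A2 was not called (0.57 ± 0.30, adjusted p = 0.312, and 0.11 ± 0.29, adjusted p = 0.913). In this comparison 6.31% and 7.19% of 18199 genes were called. The 3 shControl libraries of each line enter both hairpins' values. The NR4A1 differences held without any 1 library; without FLO1 shControl replicate 3 they were 1.62 (adjusted p = 1.52e-05) and 0.91 (adjusted p = 0.0144). For NR4A3 the shAPE1#1 call was lost without FLO1 shControl replicate 3 (1.80, adjusted p = 0.0654), OE33 shControl replicate 1 (2.16, adjusted p = 0.0592) or OE33 shAPE1#1 replicate 1 (2.04, adjusted p = 0.0871), and the shAPE1#3 call without OE33 shAPE1#3 replicate 2 (2.10, adjusted p = 0.0874). Line and culture medium cannot be told apart.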

How the results depend on the processing

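Without leaving out libraries, 576 values of the members kept direction and, where tested, their side of the threshold, or, where untested, moved by less than the spread between replicates, 4 lost a call, 5 gained one and 2 changed sign. The NR4A1 calls in FLO1 after ABS were lost when only the compared groups were fitted (shAPE1#1 -0.49, adjusted p = 0.125; shAPE1#3 -0.71, adjusted p = 0.233) and with the replicate block (-0.48, adjusted p = 0.0659, and -0.70, adjusted p = 0.0853). Without a filter on low counts NR4A3 was called in FLO1 after ABS (shAPE1#1 0.35, adjusted p = 0.0415; shAPE1#3 -0.57, adjusted p = 0.00106), and NR4A1 between the hairpins in unexposed FLO1 (0.55, adjusted p = 0.00604). With only the compared groups that NR4A1 difference was 0.54 (adjusted p = 0.00199) and that of NR4A2 0.58 (adjusted p = 0.0394). Between hairpins in OE33, NR4A3 unexposed changed sign by DESeq2 (0.0019) and NR4A1 after ABS without TMM (-0.032); both are near 0. The cause of these changes was not tested.

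Whether equal replicate numbers mark samples handled together cannot be settled from the counts. With group means removed, same-numbered libraries correlated over 0.1 in 3 of 45 pairs in FLO1 and 7 of 45 in OE33. The median correlations were -0.0043 and 0.019. The block changed no other call of a member, and the genes called in unexposed FLO1 with shAPE1#3 went from 133 to 87.

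Leaving out 1 library gave the following ranges of log2 values where a call, a sign or the size moved. In FLO1 with shAPE1#1 against shControl, NR4A1 ranged from -0.996 to -0.50, NR4A2 from -1.24 to -0.65 and NR4A3 from -0.71 to 0.14 unexposed, and NR4A1 from -0.56 to -0.34 after ABS. With shAPE1#3 NR4A1 ranged from -0.46 to 0.043 unexposed and from -0.78 to -0.56 after ABS, and NR4A2 after ABS from -0.58 to -0.47. NR4A1 between the hairpins in unexposed FLO1 ranged from 0.40 to 0.68. In OE33, NR4A3 ranged from 1.64 to 2.16 (shAPE1#1) and 1.55 to 2.28 (shAPE1#3) unexposed, and from 1.07 to 1.56 and 0.98 to 1.90 after ABS, and NR4A2 with shAPE1#1 after ABS from -0.19 to 0.10. Between hairpins in OE33, NR4A2 ranged from -0.025 to 0.21 and NR4A3 from -0.41 to 0.32 unexposed, and NR4A1 from -0.11 to 0.086 and NR4A3 from -0.38 to 0.54 after ABS. OE33 minus FLO1 for NR4A2 in unexposed shControl cells ranged from 0.34 to 0.94. OE33 minus FLO1, the effect of knockdown ranged for NR4A3 from 1.80 to 2.66 (shAPE1#1) and 1.95 to 2.84 (shAPE1#3), and for NR4A2 with shAPE1#3 from -0.24 to 0.36.

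The ABS response ranged for NR4A3 from 3.78 to 4.63 in FLO1 shControl cells and for NR4A2 from 2.05 to 2.24 in FLO1 shAPE1#3 cells. In OE33 that of NR4A3 ranged from 0.82 to 1.31 in shControl, 0.16 to 0.75 in shAPE1#1 and 0.048 to 1.04 in shAPE1#3 cells. OE33 minus FLO1, the ABS response in shControl cells ranged from -2.82 to -2.31 (NR4A1), -2.49 to -1.88 (NR4A2) and -3.62 to -2.76 (NR4A3). In shAPE1#1 cells it ranged from -3.20 to -2.93 (NR4A2) and -4.67 to -4.08 (NR4A3), and in shAPE1#3 cells from -2.12 to -1.82 and -3.98 to -3.01. The FLO1 response of shAPE1#1 minus shControl cells ranged from 0.0096 to 0.51 (NR4A1), 0.90 to 1.496 (NR4A2) and 0.19 to 1.04 (NR4A3), and for shAPE1#3 from -0.75 to -0.25, -0.47 to 0.13 and -0.56 to 0.29. In OE33 it ranged for shAPE1#1 from 0.23 to 0.51 (NR4A2) and -0.88 to -0.28 (NR4A3), and for shAPE1#3 from -0.98 to 0.018 (NR4A3).

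Counts of all genes called moved by over 1.5 times under several alternatives. When only the compared groups were fitted they went in FLO1 with ABS from 506 to 102 (shControl), 845 to 2282 (shAPE1#1) and 306 to 924 (shAPE1#3), with knockdown from 1137 to 2463 and 133 to 400 unexposed and from 2795 to 422 and 132 to 6 after ABS, and between hairpins unexposed from 2054 to 5428. In OE33 the ABS counts went from 1306 to 2157, 735 to 60 and 351 to 747. Without a filter on low counts the calls between hairpins in OE33 went from 0 to 115 unexposed and from 18 to 73 after ABS, and those of the FLO1 response difference of shAPE1#1 from 0 to 80. By DESeq2 the ABS calls went from 506 to 787 in FLO1 shControl and from 735 to 1176 in OE33 shAPE1#1 cells. Leaving out 1 library gave 287 to 923 in place of 506 for FLO1 shControl with ABS and 63 to 1126 in place of 132 for FLO1 shAPE1#3 after ABS, the latter without shControl replicate 2. NR4A3 in OE33 shControl cells rests on 4 to 17 reads per library, which limits its precision.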
